A study of Mus musculus with 8 samples.

Results

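The 8 genes described here encode transcription factors of the cerebellar granule lineage, namely Atoh1, Barhl1, Barhl2, Neurod1, Neurod2, Neurod6, Nhlh1 and Nhlh2. They were found by their symbols among the 32285 features of the count matrices, and each symbol occurred there. Nuclei were isolated from the paraflocculus and flocculus (PF/F), which are lobules of the vestibular cerebellum, of mice at postnatal day 5.5 (P5.5), and their RNA was counted in droplets by single-nucleus RNA sequencing (snRNA-seq). The study compared wild-type (WT) mice with Tbx1+/- littermates, which are heterozygous mutants of the T-box transcription factor gene Tbx1. Each genotype had 2 PF/F libraries, and each library was a pool of 5 mice. The study describes separate batches of mice, and the libraries are put in them here by their replicate number and run date, so that WT 1 and Tbx1+/- 1 form batch 1 and WT 2 and Tbx1+/- 2 form batch 2. Libraries of the petrous temporal bone (PTB), in which the PF/F is enclosed, came from mice of the same genotypes and age and are used only for the Tbx1 check and the closing values.

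Granule neurons arise from the rhombic lip. Their precursors, the cerebellar granule neuron precursors (CGNPs, labelled GNP in the annotation), divide in the external granular layer under Sonic hedgehog (SHH) before they leave the cell cycle and move inward. ATOH1 is a basic helix-loop-helix (bHLH) factor that these precursors need, and BARHL1 and BARHL2 are homeodomain factors of the same lineage. NEUROD1, NEUROD2 and NEUROD6 are bHLH factors of neuronal differentiation, and NHLH1 and NHLH2 are bHLH factors of newborn neurons. Such bHLH factors bind DNA with E proteins at short sites called E-boxes, which read CANNTG.

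The stretches of 250 bases before the start of transcription are shown for the 4 genes whose RefSeq start coincides with that of the GENCODE model, to place the E-boxes beside the genes that are compared below. They are from RefSeq on GRCm38.p6, are written 5′ to 3′ on the strand of the gene, and have each CANNTG in capitals. All 8 genes had an entry in that table. CANNTG is its own reverse complement, so that 1 search covers both strands. Atoh1 lies before its start at chr6:64728875-64729124 on the plus strand, Barhl1 at chr2:28916669-28916918 on the minus strand, Barhl2 at chr5:106458167-106458416 on the minus strand and Neurod6 at chr6:55681264-55681513 on the minus strand.
Atoh1: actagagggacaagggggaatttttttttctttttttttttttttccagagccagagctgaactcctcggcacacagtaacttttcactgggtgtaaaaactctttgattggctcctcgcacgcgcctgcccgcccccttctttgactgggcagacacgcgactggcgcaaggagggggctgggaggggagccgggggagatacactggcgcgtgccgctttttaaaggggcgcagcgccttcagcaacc
Barhl1: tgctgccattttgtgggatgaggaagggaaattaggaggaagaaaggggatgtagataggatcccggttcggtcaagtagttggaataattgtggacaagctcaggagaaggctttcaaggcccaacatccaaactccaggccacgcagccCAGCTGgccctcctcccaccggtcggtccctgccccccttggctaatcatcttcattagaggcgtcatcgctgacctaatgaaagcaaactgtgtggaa
Barhl2: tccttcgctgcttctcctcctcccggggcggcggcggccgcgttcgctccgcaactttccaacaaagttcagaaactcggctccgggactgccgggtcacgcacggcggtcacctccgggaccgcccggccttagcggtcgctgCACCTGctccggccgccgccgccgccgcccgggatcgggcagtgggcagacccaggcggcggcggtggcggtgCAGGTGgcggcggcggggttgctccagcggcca
Neurod6: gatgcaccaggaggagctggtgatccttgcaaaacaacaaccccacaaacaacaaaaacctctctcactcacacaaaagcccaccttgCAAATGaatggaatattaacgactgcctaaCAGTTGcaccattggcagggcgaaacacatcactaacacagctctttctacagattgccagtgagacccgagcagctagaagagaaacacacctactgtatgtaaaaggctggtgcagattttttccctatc

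The Atoh1 stretch held no CANNTG. Barhl1 had 1, CAGCTG, whose first base lies 99 bases before the start. Barhl2 had CACCTG at 106 and CAGGTG at 33 bases before the start, and Neurod6 had CAAATG at 162 and CAGTTG at 132 bases. Of 32851 promoters of the same length, 66.2% held at least 1 CANNTG, 31.8% held 2 or more and 13.0% held CAGCTG. A match describes the letters only and says nothing of binding.

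The genes also differ in what a count that includes introns can see. Atoh1 (ENSMUSG00000073043, chr6:64729125-64731245, plus strand) is a single exon in GENCODE M21 on GRCm38, and every base of the Nhlh2 model (ENSMUSG00000048540, chr3:102010076-102015492, plus strand) is exonic in some transcript. Introns make up 56.6% of Barhl1 (ENSMUSG00000026805, chr2:28907679-28916668, minus strand) and 59.0% of Barhl2 (ENSMUSG00000034384, chr5:106452523-106458166, minus strand). They make up 53.4% of Nhlh1 (ENSMUSG00000051251, chr1:172052292-172057573, minus strand), 37.5% of Neurod6 (ENSMUSG00000037984, chr6:55677822-55681263, minus strand) and 25.8% of Neurod2 (ENSMUSG00000038255, chr11:98325415-98329648, minus strand). Neurod1 (ENSMUSG00000034701, chr2:79452521-79456751, minus strand) is 35.5% intronic and lies wholly inside the gene Cerkl on the same strand. Levels are therefore compared between cell types for a gene and not between genes.

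Between 10583 and 17103 barcodes were counted per PF/F library, with 44713226 to 60627200 unique molecular identifiers (UMIs). Of the 57958 barcodes, 48237 were in the authors' annotation, with a median of 2610 to 3503 UMIs per nucleus in a library, and were divided among 16 cell types, of which 14 are described here. Pairs of libraries shared 30 to 60 annotated barcodes, at most 0.503% of the smaller library. Tbx1 itself had 4 and 10 UMIs in the annotated nuclei of WT 1 and WT 2 and 11 and 13 in those of Tbx1+/- 1 and Tbx1+/- 2, which is 0.0949 to 0.265 counts per 1000000 UMIs (CPM), so that PF/F counts cannot check the genotype. In annotated PTB nuclei it stood at 38.9 and 39.4 CPM in WT and at 26.3 and 35.7 in Tbx1+/-.

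Levels of a gene are its summed UMIs in all nuclei of 1 type and 1 library, in CPM of the UMIs of those nuclei. The counts were not corrected for free RNA. Oligodendrocyte, immune and endothelial nuclei, pooled in each library, therefore serve as the background for genes that such cells should lack. That background was 2.10 CPM for Atoh1, 22.3 for Barhl1, 7.80 for Barhl2, 55.2 for Neurod1, 20.4 for Neurod2, 10.9 for Neurod6, 4.84 for Nhlh1 and 13.4 for Nhlh2, each as the mean of 4 libraries. Every member was thus counted in nuclei outside the neuronal lineages, and a level near its background is not read as expression. The background is not a floor common to all types. Neurod1, for instance, was at 75.8 CPM in immune nuclei and at 20.8 CPM in Purkinje nuclei. Median depths in a library were 2474 to 2840.5 UMIs in immune and 5653 to 8533 UMIs in Purkinje nuclei, and the part of depth was not tested. The types were made by clustering nuclei on their RNA, so that levels between types are a description with no test.

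The labels of the granule types were checked against markers. The summed level of the granule markers Pax6, Zic1, Zic2 and Rbfox3 was highest in Diff.Granule Neuron, at 1661 to 1999 CPM, and next in GNP, at 1628 to 1923 CPM, and the background types were at 299 to 688 CPM.

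Atoh1, the factor of dividing precursors, was high in 1 cell type. In GNP it was at 14.9 CPM in WT 1, 16.1 in WT 2, 12.9 in Tbx1+/- 1 and 17.1 in Tbx1+/- 2, a mean of 15.2 ± 1.82 (SD, n = 4) from 407 UMIs and 7.25 times its background. In Diff.Granule Neuron it was at 3.06, 1.72, 2.94 and 1.22 CPM in the same order. Every GNP library was above every Diff.Granule Neuron library, and the latter were at the level of the background. GNP held 59.3% of all Atoh1 UMIs of annotated nuclei and 15.4% of all UMIs. The pericyte mean of 10.9 CPM, second in order, rested on 2 UMIs.

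Barhl1 was likewise highest in GNP, at 164 and 179 CPM in WT and 163 and 185 CPM in Tbx1+/- (173 ± 10.9, SD, n = 4), which is 7.76 times its background. No other type reached the lowest of these libraries. Diff.Granule Neuron was at 50.9, 44.3, 51.4 and 43.6 CPM (libraries in the order WT 1, WT 2, Tbx1+/- 1, Tbx1+/- 2, as in all that follows), which is 2.13 times the background.

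Barhl2, the paralog of Barhl1, was over 3 times its background in 2 types, GNP and Diff.Granule Neuron. It was at 57.7, 51.7, 48.6 and 49.9 CPM in GNP and at 30.1, 26.7, 30.8 and 27.9 CPM in Diff.Granule Neuron, and the ranges of the 2 types did not overlap. Meningeal nuclei were next, at 13.1 ± 4.08 CPM (SD, n = 4), against a background whose libraries reached 10.5 CPM.

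Neurod1, a bHLH factor that promotes granule neuron differentiation, had overlapping levels in both granule types. It was at 170, 147, 183 and 151 CPM in GNP and at 167, 150, 175 and 146 CPM in Diff.Granule Neuron, with overlapping ranges, at 2.95 and 2.89 times the background. No type was 3 times above the Neurod1 background, which was itself at 42.0 to 72.3 CPM. Cerkl, the gene that encloses Neurod1, was at 72.2 ± 9.99 CPM (SD, n = 4) in GNP and 64.7 ± 5.20 in Diff.Granule Neuron, and at 8.45 ± 2.43 in oligodendrocytes. Reads of the shared stretch cannot be told apart between the 2 genes. How the authors' counting treated them could not be checked, so that such reads may have been dropped or given to 1 of the genes, and their part in either level was not tested.

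Neurod2 and Neurod6, bHLH factors of postmitotic neurons, followed another order. Neurod2 was at 74.4, 75.1, 71.6 and 70.9 CPM in Diff.Granule Neuron, 3.58 times its background. In GNP it was at 28.6, 18.7, 30.6 and 22.2 CPM, 1.23 times the background and above it in 3 of 4 libraries. Differentiated GABA interneurons, which are inhibitory and come from the ventricular zone, had 88.7, 74.7, 74.0 and 68.5 CPM, and the GABA interneuron progenitors had 53.8, 73.6, 49.97 and 42.7 CPM. The range of Diff.Granule Neuron overlapped those of these GABA types, and no other of the 14 types had a higher mean than these 3.

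Of the 14 types, Neurod6 was highest in differentiated GABA interneurons, at 47.1, 52.2, 53.8 and 55.5 CPM (52.1 ± 3.64, SD, n = 4), 4.78 times its background. Diff.Granule Neuron followed at 27.2, 26.0, 27.7 and 27.8 CPM, 2.49 times the background, and these ranges did not overlap. GNP was at 21.6, 13.5, 17.1 and 13.0 CPM, 1.49 times the background. GABA interneuron progenitors were near background, at 17.6, 10.3, 11.8 and 10.4 CPM, and so was the type labelled GABA.interneuron, at 5.52 ± 5.19 CPM (SD, n = 4). Neurod2 was at 11.4 ± 10.5 CPM there, below its background.

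Nhlh1 was highest in GNP, at 30.9, 34.9, 33.1 and 31.9 CPM, 6.76 times its background. The GABA interneuron progenitors had 9.06, 23.7, 16.5 and 24.2 CPM, all below GNP, and Diff.Granule Neuron had 14.0, 15.7, 15.2 and 11.4 CPM. The background was at 3.25 to 5.61 CPM.

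Nhlh2 was highest outside the granule lineage, in the GABA interneuron progenitors, at 80.5, 82.3, 88.2 and 69.9 CPM, and these libraries lay above those of every other type. Differentiated GABA interneurons had 66.5, 50.6, 54.4 and 50.02 CPM, which overlapped GNP at 51.4, 45.9, 46.3 and 45.9 CPM. Diff.Granule Neuron was below GNP in every library, at 33.8, 26.7, 31.1 and 27.4 CPM. The GABA markers Pax2, Gad1, Gad2 and Slc32a1 summed to 248 to 321 CPM in the progenitors, to 1635 to 1809 CPM in the differentiated interneurons and to 30.3 to 48.5 CPM in GNP. The GABA markers summed to 449 to 574 CPM in the type labelled GABA.interneuron. The progenitors also held 961 to 1321 CPM of the granule markers, against 299 to 688 CPM in the background types. They held 724 to 975 CPM of the astroglia markers Slc1a3, Aqp4, Gfap and Gdf10, and 273 to 360 CPM of the rhombic lip markers Wls and Sox6. The part of granule or other RNA in their Nhlh1 and Nhlh2 levels was not tested. Neurod1 was at 1.30 times its background in the progenitors.

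**Figure D1:**
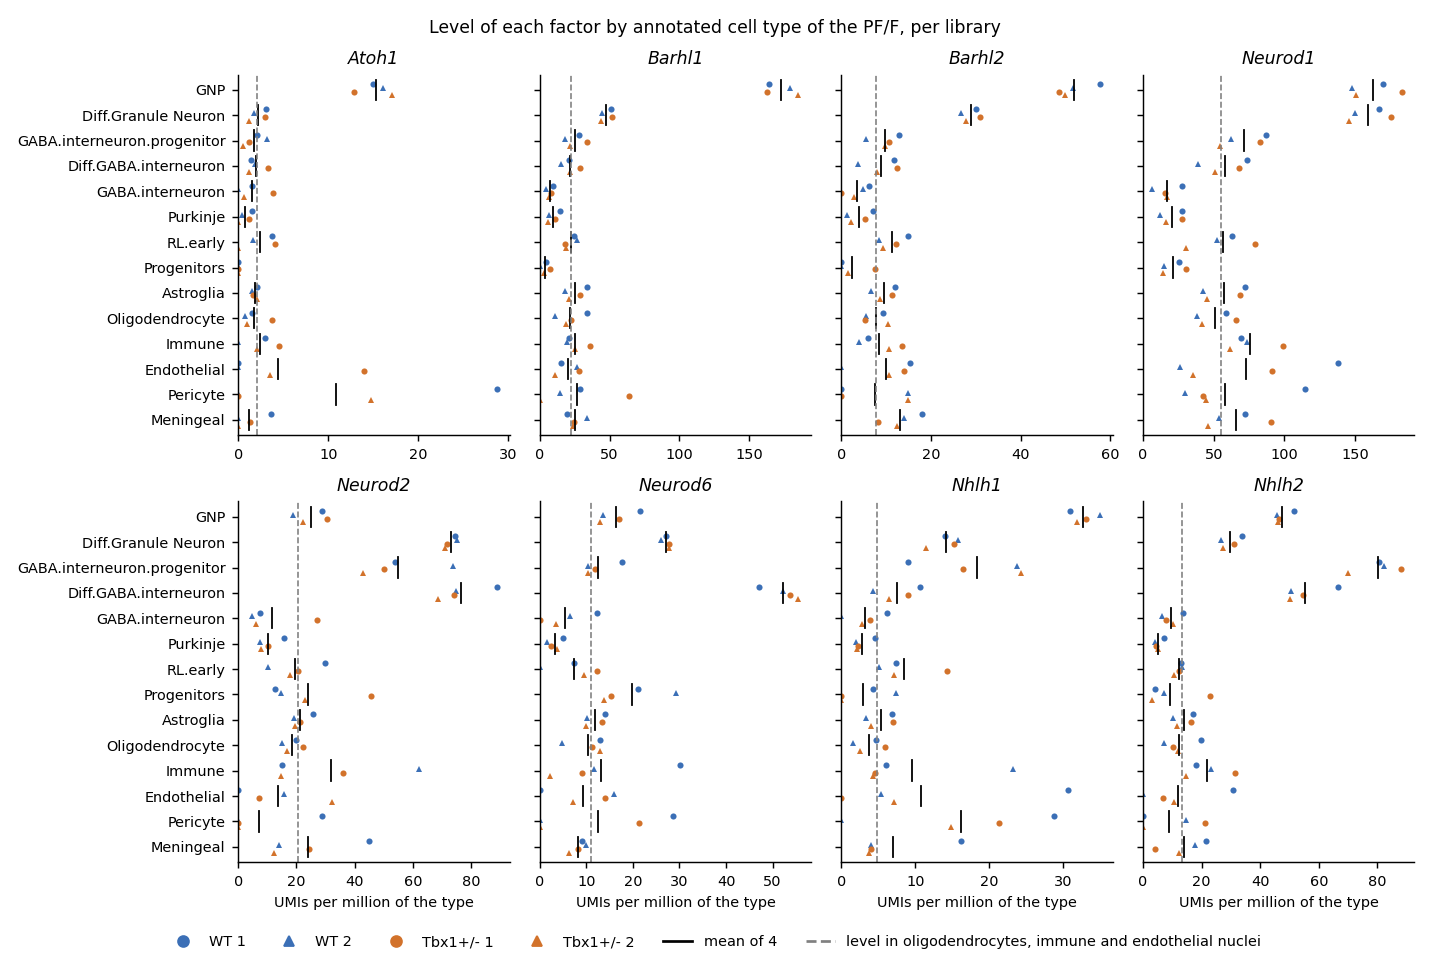
CPM of each of the 8 genes in 14 annotated cell types, with 1 point for each of the 4 PF/F libraries, a black bar for their mean and a dashed line for the background level. Atoh1, Barhl1, Barhl2 and Nhlh1 stand highest in GNP, Neurod1 is level between GNP and Diff.Granule Neuron, Neurod2 and Neurod6 stand higher in Diff.Granule Neuron and differentiated GABA interneurons than in GNP, and Nhlh2 is highest in the GABA interneuron progenitors.

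Between the granule types, the 8 genes fell into 3 groups. Atoh1, Barhl1, Barhl2, Nhlh1 and Nhlh2 were higher in GNP than in Diff.Granule Neuron in every library, Neurod2 and Neurod6 were lower in every library, and Neurod1 did neither. The log2 ratio of GNP over Diff.Granule Neuron for Atoh1 was 2.28, 3.23, 2.13 and 3.81 (mean 2.86, SD 0.80, n = 4). It was 1.86 ± 0.22 for Barhl1, 1.22 ± 0.17 for Nhlh1, 0.85 ± 0.14 for Barhl2 and 0.68 ± 0.10 for Nhlh2 (SD, n = 4). Neurod1 ranged from -0.02 to 0.06. Neurod6 stood at -0.77 ± 0.33 and Neurod2 at -1.57 ± 0.35, which is 2.97 times as much in Diff.Granule Neuron as in GNP. With the level in oligodendrocytes of the same library subtracted, Atoh1 no longer had a ratio in each library, since Diff.Granule Neuron did not exceed it in 1 of the 4. The mean log2 ratio then became -3.14 for Neurod2, -2.59 for Neurod6 and 2.57 for Barhl1, so that the sizes of these ratios depend on whether that level is subtracted. When each nucleus had equal weight, Neurod1 was lower in GNP in all 4 libraries, and its highest type became Diff.Granule Neuron.

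**Figure D2:**
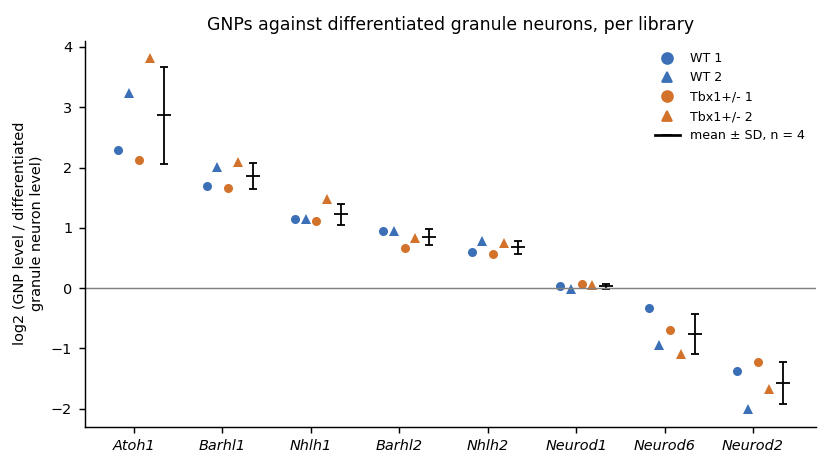
Log2 ratio of the level in GNP over that in Diff.Granule Neuron for each gene, with 1 point per PF/F library and the mean ± SD (n = 4). Values above 0 are higher in GNP. Atoh1 lies between 2.13 and 3.81, Neurod1 between -0.02 and 0.06 and Neurod2 between -2.01 and -1.22.

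By the share of nuclei with a UMI, the same 5 genes were higher in GNP in every library, and Neurod1 joined Neurod2 and Neurod6 as lower in every library. Each nucleus was taken at an expected 1500 UMIs, which left out 224 of 9404 GNP nuclei (70 WT and 154 Tbx1+/-) and 86 of 18286 Diff.Granule Neuron nuclei (31 WT and 55 Tbx1+/-). A UMI of Barhl1 was then found in 22.0% ± 1.14 of GNP, 7.03% ± 0.326 of Diff.Granule Neuron and 2.71% ± 1.54 of oligodendrocytes (SD, n = 4). For Neurod1 the shares were 20.8%, 21.9% and 6.84%, and for Neurod2 they were 3.62%, 10.5% and 2.47%. Atoh1 was found in 2.33% ± 0.439 of GNP, 0.332% ± 0.153 of Diff.Granule Neuron and 0.311% ± 0.223 of oligodendrocytes. Nhlh1 was in 4.72% of GNP and 2.38% of Diff.Granule Neuron, Nhlh2 in 6.58% and 4.71%, Barhl2 in 7.49% and 4.54%, and Neurod6 in 2.35% and 4.09%. Without thinning, Atoh1 was in 4.29% of GNP and 0.685% of Diff.Granule Neuron, Barhl1 in 34.8% and 13.9%, Neurod1 in 34.2% and 39.4%, and Neurod2 in 6.63% and 21.0%. The unthinned shares in oligodendrocytes were 0.658%, 7.28%, 16.5% and 6.46% for these genes. Median depths in a library were 2294 to 2966 UMIs in GNP, 2572 to 3483 in Diff.Granule Neuron and 2960 to 3991 in oligodendrocytes. A nucleus without a UMI is not a nucleus without the transcript at this depth.

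The labels GNP and Diff.Granule Neuron divide what the deposited map of nuclei shows as a continuum, so levels were also read along it. Granule nuclei were ordered on the line between the centres of these 2 types in the authors' map (UMAP) and divided into 8 groups of 3461 or 3462 nuclei, a division chosen after the levels by type had been seen. The share of nuclei labelled GNP was 99.9%, 100% and 68.1% in groups 1 to 3 and 1.73% in group 4. Library medians of depth were 2309 to 2984 UMIs in group 1, 2092 to 2749 in group 4 and 3342 to 4496 in group 8. The part of depth in the levels along the order was not tested. The map was built from the same counts, so that the order is a description.

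Along this order the genes were highest in different groups, and some of them shared a group. Barhl1 was highest in group 1 in all 4 libraries and its mean was lower in each following group, from 224 ± 27.5 to 30.1 ± 6.58 CPM (SD, n = 4). Atoh1 was at 18.0 ± 3.65, 16.6 ± 5.53 and 9.10 ± 1.85 CPM in groups 1 to 3 and at 1.90 ± 1.49 CPM in group 4, where it met its background. Barhl2 stayed between 50.4 and 53.6 CPM in groups 1 to 3 and was at 13.8 ± 1.58 CPM in group 8. Nhlh1 peaked in group 3 in every library, at 45.4 ± 3.38 CPM, after 27.2 ± 3.17 CPM in group 1, and was at 12.7 ± 1.47 CPM in group 5.

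Neurod1 peaked in group 4 in every library. It was at 116 ± 18.7 CPM in group 1, 274 ± 26.1 CPM in group 4 and 99.5 ± 10.9 CPM in group 8 (SD, n = 4), so that the equal means of the 2 types held a rise and a fall. Nhlh2 peaked in the same group in every library, at 74.7 ± 4.30 CPM, and was at 36.9 ± 2.82 CPM in group 1 and 33.9 ± 3.53 CPM in group 5. Neurod6 was highest in group 4 in 3 libraries and in group 3 in WT 1, at a mean of 35.1 ± 2.69 CPM in group 4 against 11.2 ± 2.71 CPM in group 1. Neurod2 rose later, from 17.7 ± 4.72 CPM in group 1 to 89.6 ± 6.64 CPM in group 6, and peaked in group 5 or 6 in each library. In group 1, Neurod2 and Neurod6 were near their backgrounds of 20.4 and 10.9 CPM.

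Genes that mark stages of the lineage were read on the same order. Cntn2, Rbfox3 and Grin2c were taken from a list of granule differentiation genes. Of that list, Dcc and Jam3 had lower means in Diff.Granule Neuron, at 2591 and 32.2 CPM against 14728 and 76.3 CPM in GNP. The other genes of the list had higher means in Diff.Granule Neuron. Dcc and Jam3 were not read on this order. Top2a, a topoisomerase of dividing cells, was at 870 ± 154, 723 ± 118, 442 ± 21.2 and 84.8 ± 28.8 CPM in groups 1 to 4, and Gli1, a target of SHH, at 51.1 ± 2.50 and 3.55 ± 0.706 CPM in groups 1 and 4. Cntn2, an adhesion molecule of newly postmitotic granule neurons, peaked in group 4, at 444 ± 47.0 CPM, against 30.2 ± 3.95 CPM in group 1 and 174 ± 7.62 CPM in group 5. Group 4, in which Neurod1, Nhlh2 and mostly Neurod6 peaked, was the group of the Cntn2 peak in all 4 libraries, and the general granule genes Pax6 and Rbfox3 peaked there in all 4 and Zic1 in 3 of 4. Grin2c, a glutamate receptor subunit of maturing granule neurons, peaked in group 7 at 58.2 ± 10.7 CPM, and it was at 28.2 ± 6.80 CPM in group 1.

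**Figure D3:**
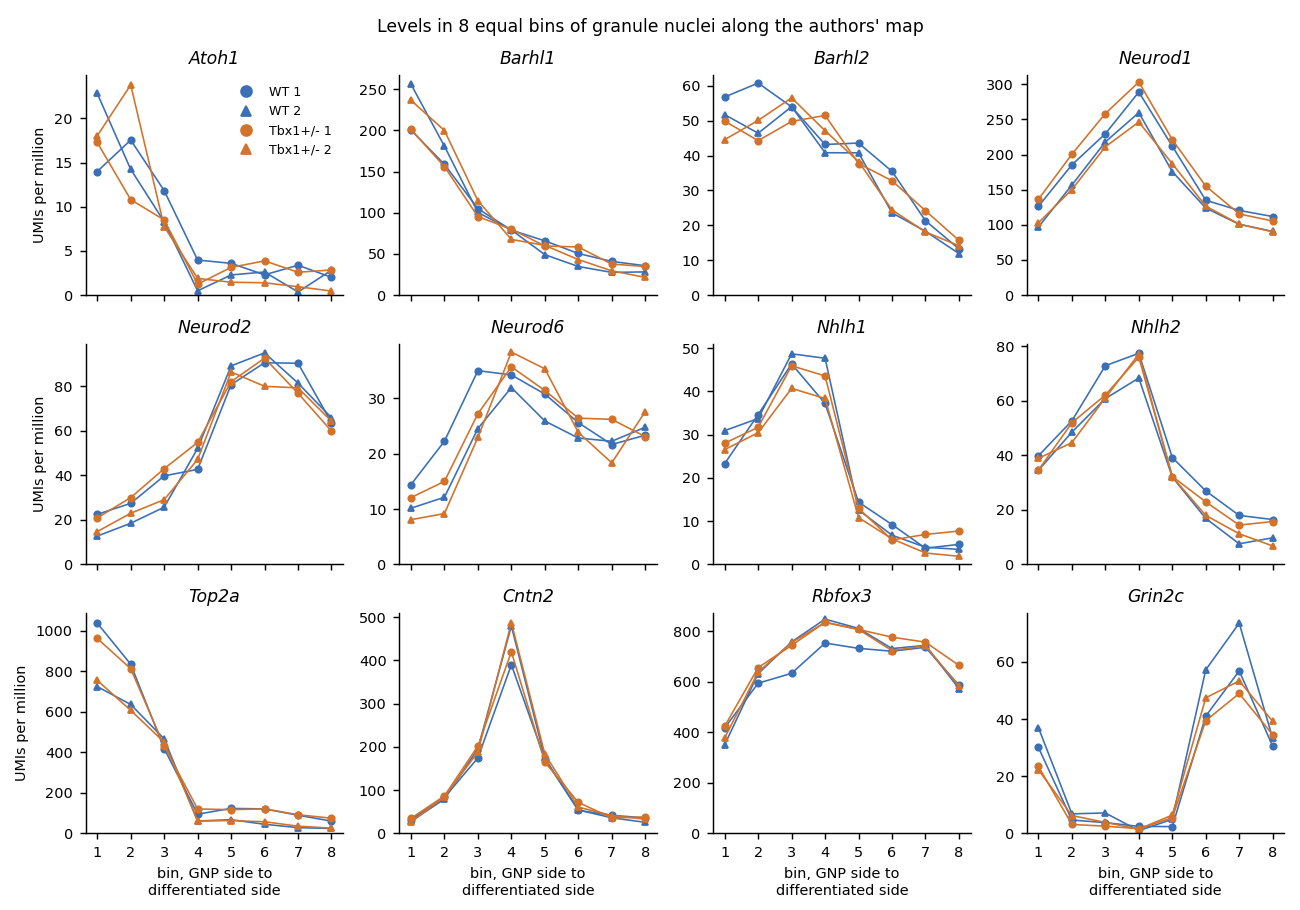
CPM in 8 equal groups (bins) of granule nuclei ordered from GNP to Diff.Granule Neuron on the authors' map, for the 8 genes and for 4 stage markers, with 1 line for each of the 4 libraries. Barhl1 and Atoh1 are highest at the GNP end, Nhlh1 peaks in group 3, Neurod1 and Nhlh2 peak in group 4 with Cntn2, and Neurod2 is highest in groups 5 to 7.

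Within GNP, pairs of genes in the same nucleus were counted after each nucleus had been drawn down to 1500 UMIs, and compared with the number that the shares in each library would give if independent. Neurod1 and Cntn2 were found together in 257 nuclei where 204 were expected, a ratio of 1.26 (counting interval 1.11 to 1.42, libraries 1.20 to 1.37). Neurod2 and Cntn2 had a ratio of 1.65 (1.25 to 2.13). Barhl1 and Cntn2 were found together in 157 nuclei where 213 were expected, a ratio of 0.74 (0.63 to 0.86), and Barhl1 and Neurod1 in 370 where 416 were expected, at 0.89 (0.80 to 0.98, libraries 0.82 to 0.94). For Mki67 and Top2a, a pair of cell cycle genes, the ratio was 1.30. Of 50 pairs of a member with a member or with Mki67, Top2a, Cntn2 or Rbfox3 that had at least 20 nuclei expected, 5 intervals lay above 1 and 4 below. Without drawing down the numbers were 25 and 2, so that the counts of such pairs depend on depth. Intervals cover counting error only, since nuclei of a library are not replicates. At 95%, such error alone would put some of 50 intervals off 1. The member pairs named above all had intervals that left out 1.

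The genes whose levels over the 16 types were most like a member's were named by Pearson's r of log2(mean CPM + 1), among 15731 genes that reached 10 CPM in a type. The points share libraries, depth and free RNA, and r is a description. Barhl1 was most like Otx2, a homeodomain factor of brain development (r = 0.93), and Neurod1 came next (r = 0.91). Barhl2 was most like Cog7 (0.94), with Neurod1 also among its 5 (0.90). Neurod1 was most like Peli2 (0.94), Nhlh1 like Stag1 (0.94) and Nhlh2 like Cbfa2t2 (0.89). Neurod2 and Neurod6 were most like A730004F24Rik and Tmem178 (each 0.90), and both had Gm31615 among their 5. Atoh1 was most like Papln (0.90), a gene whose highest mean was 16.2 CPM. By ranks in place of r, 6 of these 40 genes stayed, so that most of these names depend on the measure of likeness. Among the members, r was 0.86 for Barhl1 with Barhl2, 0.82 for Neurod2 with Neurod6, 0.67 for Nhlh1 with Nhlh2 and -0.20 for Atoh1 with Neurod2.

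Other genes of the lineage gave the setting of these levels, from lists of pathway genes. In GNP, the SHH and cycling genes Gli1 and Mycn were at 42.0 and 103 CPM, against 3.996 and 22.0 CPM in Diff.Granule Neuron. HES and HEY genes mostly encode bHLH repressors that oppose proneural factors, whereas HES6 promotes differentiation. Hes6 was at 55.9 against 20.4 CPM and Hey1 at 32.5 against 8.86 CPM. Hes1 was at 5.78 against 4.17 CPM and Hes5 at 16.5 against 13.5 CPM, and Hey2 and Heyl were below 5 CPM in both types. Tcf4 and Tcf12, E proteins with which proneural bHLH factors pair, were at 2461 and 689 CPM in GNP and at 1653 and 638 CPM in Diff.Granule Neuron. Of the other proneural bHLH genes, Neurod4 was at 9.96 CPM in GNP and 1.499 CPM in Diff.Granule Neuron, and Ptf1a, Neurog1, Neurog2 and Olig3 were below 5 CPM in both. Bhlhe22 was at 57.0 CPM in GNP and 60.4 CPM in Diff.Granule Neuron.

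The genotypes were compared within GNP and Diff.Granule Neuron, which asks whether loss of 1 Tbx1 copy changed these factors in the lineage. The sums of each library were tested with edgeR's quasi-likelihood test, and a gene was called at an adjusted p under 0.05 (Benjamini-Hochberg over all genes tested in the type) and a change over 1.5-fold. No member was called in either type. The background share of called genes was 0% of 15361 in GNP and 0% of 17091 in Diff.Granule Neuron, so that the absence of calls is shared with every gene. At an unadjusted p under 0.05, edgeR had 139 and 106 genes in these types (0.905% and 0.62%), and no member was among them. DESeq2 called 0 genes in each type and had 15 and 7 genes at an unadjusted p under 0.05. With 2 pools a genotype, an exact two-sided permutation test cannot give a p below 0.33. With the batch as a block, edgeR called 3 genes in GNP (Ttr, Ptgds and Cntn5) and 0 in Diff.Granule Neuron, and again no member. That fit had 695 genes in GNP and 671 in Diff.Granule Neuron at an unadjusted p under 0.05 by edgeR. The counts at this limit thus depend on whether the batch is in the fit, and the members' unadjusted p-values with the block are not given here. Without WT 1 the counts of called genes were 2 in GNP and 39 in Diff.Granule Neuron, and none was a member.

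In GNP no estimate exceeded its standard error in the main fit, which had no batch term. Estimates and intervals with the batch as a block are not given here. The log2 change of Tbx1+/- against WT was -0.03 for Atoh1 (standard error 0.20, 95% interval -0.51 to 0.44) and 0.04 for Barhl1 (0.16, -0.33 to 0.41). It was 0.09 for Neurod1 (0.17, -0.32 to 0.50), 0.00 for Nhlh1 (0.14, -0.33 to 0.34) and -0.06 for Nhlh2 (0.14, -0.39 to 0.27). Neurod2 was at 0.18 (0.25, -0.41 to 0.77) and Neurod6 at -0.20 (0.27, -0.83 to 0.42), both at levels near their background. All had an adjusted p of 1 by edgeR. The intervals of Neurod2 and Neurod6 reached past 1.5-fold, and those of the other 6 members lay within 1.5-fold in either direction.

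Barhl2 was the single member of 8 whose GNP libraries did not overlap between genotypes, at 57.7 and 51.7 CPM in WT and 48.6 and 49.9 CPM in Tbx1+/-. Its log2 change was -0.13 (standard error 0.14, 95% interval -0.46 to 0.19, adjusted p = 1 by edgeR), and it was lower in Tbx1+/- in both batches, by 0.25 and 0.05 on the log2 scale. Among all genes tested in GNP, 22.2% had genotypes that did not overlap. In Diff.Granule Neuron, 2 of 8 members did not overlap, Neurod2 (74.4 and 75.1 CPM in WT, 71.6 and 70.9 in Tbx1+/-) and Neurod6 (27.2 and 26.0 against 27.7 and 27.8), beside 20.1% of all genes.

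In Diff.Granule Neuron, the 8 log2 changes of the same main fit lay between -0.21 and 0.08. The widest interval was that of Atoh1, from -1.37 to 0.94, at background level. The difference of the genotype effect between GNP and Diff.Granule Neuron, tested with the library as a block, lay between -0.26 and 0.25 for the 8 members, and its smallest unadjusted p was 0.176 for Barhl2 (adjusted p = 1, edgeR, with 0% of 17287 genes called and 2.85% at an unadjusted p under 0.05). Thinned shares of nuclei with a UMI gave exact permutation p-values from 0.33 to 1.00 over the 8 genes and 2 granule types.

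Batches stood apart more often than genotypes. Over the 16 pairs of a member and a granule type, both batch 1 libraries were above both batch 2 libraries in 9 and below them in 2, and the genotypes did not overlap in 3. In GNP the batches did not overlap for Atoh1 and Barhl1, higher in batch 2, and for Neurod1, Neurod2, Neurod6 and Nhlh2, higher in batch 1. Of all genes tested, the batches did not overlap for 57.5% in GNP and 60.4% in Diff.Granule Neuron. Within batches, the direction of Tbx1+/- against WT was the same in both for 8 of the 16. The part of batch in the levels was not tested beyond the fit with the batch as a block, in which no member was called.

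**Figure D4:**
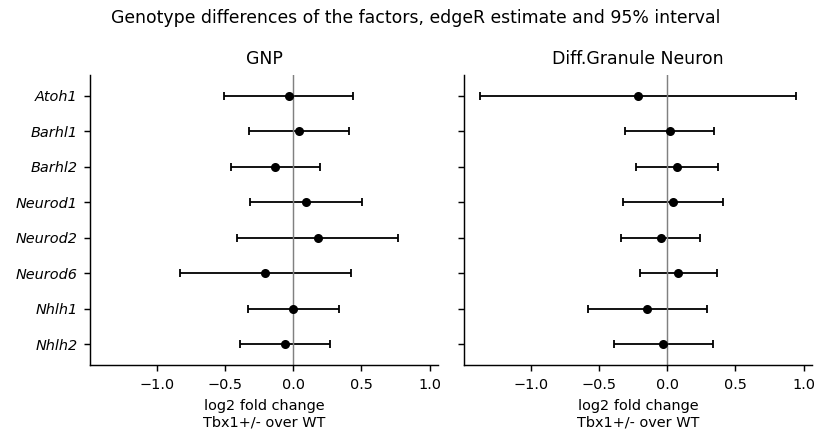
Log2 change of Tbx1+/- against WT for each gene in GNP and Diff.Granule Neuron, with 95% intervals from edgeR (2 libraries a genotype, no batch term). Every interval includes 0, and the widest is that of Atoh1 in Diff.Granule Neuron, from -1.37 to 0.94.

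Genes of the lineage lists were not called either. In GNP, 0 of 7 E protein and Id genes, 0 of 5 tested HES and HEY genes, 0 of 11 SHH and cycling genes, 0 of 14 other granule transcription factors, 0 of 9 tested differentiation genes and 0 of 8 tested proneural bHLH genes were called, against 0% of all genes. The median log2 change was -0.05, -0.25, 0.09, 0.03, 0.05 and -0.11 in these lists, -0.02 over the 8 members and 0.00 over all genes tested. The list genes with an unadjusted p under 0.05 in GNP were Hey2, at -1.18 (adjusted p = 1 by edgeR) and a mean level of 1.90 CPM, and Grin2c, at -0.54 (adjusted p = 1 by edgeR). No list gene had such a p in Diff.Granule Neuron.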

How the data were processed

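Nuclei of the PF/F and of the PTB of P5.5 WT and Tbx1+/- mice had been sequenced by 10x Genomics snRNA-seq, with 2 libraries per genotype and tissue, each from 5 mice. The authors made the count matrices with Cell Ranger 7.0.0 on mm10, with intronic reads included, and deposited raw UMI counts per gene and barcode. In the deposited PF/F annotation, the UMI totals per nucleus are expected counts, since the authors had removed free RNA with SoupX, and the number of detected genes is a count. The deposited map coordinates (UMAP) are a score with no unit. Cell types were taken from that annotation, which the authors had made by clustering, label transfer and manual curation. The deposited matrices are not corrected for free RNA, and SoupX was not run again. No removal of doublets was described in the sources used here, and the 8% of nuclei with most UMIs were left out as an alternative.

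UMIs were summed over the annotated nuclei of a type in a library. The library was the replicate, whereas the study tested nuclei. The sums were tested with edgeR 4.0.16 in R 4.3.3 (filterByExpr, TMM, quasi-likelihood test) over all genes of a type. Calls used the study's limits, an adjusted p under 0.05 and over 1.5-fold. The main fit had no batch term, so that its p-values and intervals measure the spread between libraries of a genotype. That spread holds the differences of pools and of batches together. The study states that mice came in separate batches without saying which library belongs to which, and the replicate number was taken as the batch because same-numbered PF/F libraries share a run date. Deviations of same-numbered libraries from their genotype means correlated at 0.699 in GNP and 0.811 in Diff.Granule Neuron. The counts of called genes from the fit with this block are therefore given too. In simulated counts with 200 genes changed 4-fold, the test recovered 100% in each type, with 7 false calls in GNP (15098 genes) and 7 in Diff.Granule Neuron (16829). The changed genes were drawn only from genes above a set level, and the simulated libraries held no batch difference. The recovery therefore says nothing of changes near 1.5-fold or of genes at low levels.

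Shares of nuclei were computed for nuclei drawn down to 1500 UMIs. Promoters were searched in the RefSeq table, and gene models were read from GENCODE M21. Python 3.11.15, numpy 2.4.6, scipy 1.17.1, pandas 2.3.3 and matplotlib 3.10.9 were used. Alternatives were DESeq2 1.42.0, RLE size factors, no filter on low counts, the replicate block, other sets of nuclei, the mean over nuclei, subtraction of the oligodendrocyte level, other thinning depths, ranks in place of r, and leaving out each library.

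The 8 genes, the lists and the rules were chosen with earlier results of these data known. The genes named are the 8, the genes of the fixed lists, the fixed cell type markers, the 5 genes most like each member (by r over cell types) and called genes. Tbx1, Cerkl, Cntn2 and the other stage markers were added as checks or landmarks, partly after values had been seen. Intervals of counts and shares cover counting error only. Values of 2 of the 16 annotated types and of some list genes are not reported here, although the likeness of patterns was computed over all 16. The PTB annotation was used only to mark annotated nuclei.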

Additional observations from a re-analysis of the deposited data

Results flagged for a closer look

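Nhlh2 in GNP had 1 library far from the others. WT 1 was at 51.4 CPM and the nearest library at 46.3 CPM, a gap of 0.919 of the whole range, which is above Dixon's 95% critical value for 4 libraries. The check was made for 16 groups (8 genes in 2 types) and found this 1, and chance alone gives about 1 in 20, or 0.8 here.

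The PTB libraries gave signals of the 8 genes outside the comparisons of the report. Of 63177 PTB barcodes, 31076 were annotated, as cartilage, bone and connective tissue nuclei and osteoclasts, and most UMIs of the 8 genes lay in the other barcodes. Over all barcodes and over annotated nuclei, UMIs numbered 544 and 70 for Barhl1, 398 and 51 for Neurod2, 272 and 57 for Neurod1 and 270 and 53 for Neurod6. They numbered 121 and 29 for Nhlh2, 85 and 14 for Atoh1, 49 and 11 for Nhlh1 and 24 and 1 for Barhl2.

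Barcodes outside the annotation were divided by whether they held a UMI of a member. The markers of inner ear hair cells Pou4f3, Gfi1, Myo7a, Myo6, Otof, Ptprq, Tmc1 and Slc26a5 summed to 5371 CPM in the 57 barcodes with 1 UMI of Atoh1 and to 552 CPM in barcodes with none. The ratio was 5.12 to 16.1 in single libraries. The 57 barcodes held 600277 UMIs together and the 32038 with none held 145666017, so that the former were deeper. Barcodes with 1 UMI of each other member were likewise deeper than those with none. The part of depth in these marker levels was not tested. ATOH1 is also the factor that hair cells need, and BARHL1 is expressed in them. For Barhl1 the hair cell markers were at 3251 CPM in 298 barcodes against 486 CPM (libraries 3.24 to 11.6 times). For Nhlh1 they were at 2217 CPM in 32 barcodes against 570 CPM (2.44 to 6.97 times). The neuron markers named next were also higher in these 32 barcodes, at 2433 CPM against 320 CPM, with WT 2 at 3406 CPM, but in WT 1 and Tbx1+/- 1 they were lower than in barcodes without Nhlh1. These 3 genes were picked because the summed hair cell markers were over 2-fold higher with 1 UMI in all 4 PTB libraries. Agreement between libraries thus follows from the choice and is not a result. The barcodes with 1 UMI of Nhlh1 numbered 11, 9, 7 and 5 in WT 1, WT 2, Tbx1+/- 1 and Tbx1+/- 2. The sum is not particular to hair cells and is not split by gene here. PF/F astroglia held 312 to 396 CPM of it, and PF/F endothelial nuclei held 270 to 306 CPM with Pou4f3, Gfi1, Otof, Tmc1 and Slc26a5 at 0.

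The neuron markers Snap25, Nefl, Nefm, Prph, Slc17a7, Slc17a6 and Tubb3 were read in the same way. Neurod1, Neurod2 and Nhlh2 were picked by the same rule, so that agreement between their libraries follows from it. They were at 1402 CPM in 164 barcodes with 1 UMI of Neurod1 against 309 CPM in those without. They were at 711 CPM in 242 barcodes with Neurod2 against 318 CPM, with library ratios of 2.32 to 2.46. They were at 1970 CPM in 73 barcodes with Nhlh2 against 310 CPM, with library ratios of 3.77 to 8.87. For Neurod6 they were at 783 CPM in 142 barcodes against 321 CPM, a difference that was not over 2-fold in every library. The 19 barcodes with 1 UMI of Barhl2 had no common direction, since the hair cell markers were at 4950 CPM in WT 1 and below the level of barcodes without Barhl2 in WT 2 (489 against 694 CPM) and Tbx1+/- 1 (229 against 537 CPM), and the neuron markers were below it in WT 2 (114 against 292 CPM). These barcodes carry no annotation here, and their cell types were not assigned. Genotypes were not compared among them.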

How the results depend on the processing

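No member was called in any of 30 fits, which gave 240 values of members. With the replicate number as a block (replicate block), edgeR called 3 genes in GNP and 0 in Diff.Granule Neuron, and it changed no call of a member. Without a filter on low counts, 1 gene was called for the difference of the genotype effect between GNP and Diff.Granule Neuron, and RLE size factors gave 1 for that difference. Leaving out each library in turn gave 1 to 2 calls in GNP, 0 to 39 in Diff.Granule Neuron and 0 to 10 for the difference. The highest of these counts all came without WT 1. A lone library is then assumed to vary like those of the other genotype. The cause of these shifts was not tested. The difference of the genotype effect has the library as a block already and was not run with another block.

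Among the fold changes of members, 35 values turned in direction and 181 did not, and none passed the threshold on either side. With nuclei of at least 2000 detected genes, the log2 change turned to -0.018 for Neurod1 in GNP and to -0.14 for Barhl2 and -0.021 for Neurod1 in Diff.Granule Neuron. Without the 8% of nuclei with most UMIs, Nhlh1 in GNP turned to -0.0027. The cause was not tested.

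Leaving out each library in turn moved the log2 change across 0 for these members. In GNP it ranged from -0.24 to 0.14 for Atoh1, -0.050 to 0.11 for Barhl1, -0.076 to 0.23 for Neurod1, -0.10 to 0.53 for Neurod2, -0.51 to 0.19 for Neurod6, -0.078 to 0.077 for Nhlh1 and -0.15 to 0.034 for Nhlh2. In Diff.Granule Neuron it ranged from -0.94 to 0.29 for Atoh1, -0.098 to 0.11 for Barhl1, -0.090 to 0.14 for Neurod1, -0.36 to 0.029 for Nhlh1 and -0.17 to 0.12 for Nhlh2. The difference between GNP and Diff.Granule Neuron ranged from -0.54 to 1.11 for Atoh1, -0.16 to 0.24 for Barhl1, -0.027 to 0.58 for Neurod2, -0.53 to 0.070 for Neurod6, -0.0036 to 0.34 for Nhlh1 and -0.12 to 0.074 for Nhlh2.

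The type with the highest level was kept by each of the 8 genes under every alternative, other than Neurod1 under the mean over nuclei. With nuclei of at least 2000 genes, 6 members in place of 5 were higher in GNP than in Diff.Granule Neuron in every library. With the oligodendrocyte level subtracted the number was 4, and under the mean over nuclei 3 in place of 2 were lower. Of the log2 ratios of members under the alternatives, 50 stayed within the SD between libraries and 14 moved by more, and with the subtraction these were 4.45 for Atoh1 (3 libraries), 2.57 for Barhl1, 1.07 for Barhl2, 1.499 for Nhlh1, 1.02 for Nhlh2, -2.59 for Neurod6 and -3.14 for Neurod2. The shares of nuclei gave 5 higher members at each depth. Co-detection without drawing down gave 25 pairs above and 2 below the independent number, and ranks kept 6 of the 40 most alike genes.

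Limits are the 2 pools a genotype, the UMIs of every member in types that should lack it, in which the parts of free RNA, doublets and misassigned nuclei were not tested, and the low counts of Atoh1. Nuclear RNA with introns sees a gene without introns by its exons alone, and the stretch that Neurod1 shares with Cerkl cannot be told apart. In these summed counts, fewer expressing nuclei and less RNA per nucleus cannot be told apart at the level of a type.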
